A study of Mus musculus with 19 samples.

Results

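Lipoprotein lipase (Lpl) and 7 genes that act beside it were followed mouse by mouse in the liver across a reproductive cycle. The 8 members, Lpl, Lipc, Lipg, Lmf1, Gpihbp1, Angptl4, Angptl6 and Vldlr, were taken by gene symbol from a table of 51826 gene entries, each symbol matched 1 entry, and all 8 had a mean of at least 0.1 TPM, as had 16230 entries in all. TPM (transcripts in each 1000000) is a level corrected for transcript length, so genes may be compared within a mouse. It is a share of all transcripts of a mouse, so a difference between mice is relative to the other genes. RNA came from flash-frozen liver of female Balb/c mice, given as 12 weeks old in every group. The 3 groups were 7 nulliparous mice (NUL), 6 mice at lactation day 10 (LAC) and 6 mice at involution day 6 (ID6), after weaning. The study asked how the liver of the mother differs between these stages. The genes were chosen by symbol with results of these mice already known, and selected on, among others, the difference of Lpl between LAC and NUL, so the stage differences of the members are given as a description with no test.

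Lipoprotein lipase hydrolyses the triglycerides of chylomicrons and very low density lipoproteins on the wall of capillaries, and the fatty acids it frees are taken up by the tissue beneath. It is best known from adipose tissue, heart, skeletal muscle and the lactating mammary gland, and the adult liver is known for a low level of it. Hepatic lipase (Lipc), which acts on remnant particles and high density lipoproteins, is the main member of the family made by hepatocytes, and endothelial lipase (Lipg) prefers the phospholipids of high density lipoproteins. All of them need the endoplasmic reticulum protein LMF1 to fold, GPIHBP1 carries LPL across capillary endothelium, ANGPTL4 inactivates LPL, and the very low density lipoprotein receptor (Vldlr) takes up triglyceride-rich particles. ANGPTL6 is a relative of ANGPTL4 made by the liver that is not known as an inhibitor of LPL.

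The members lie on 6 chromosomes of the GRCm38 genome in GENCODE M21, where all are protein-coding. Lpl is at chr8:68880491-68907448 on the plus strand and Lipc at chr9:70798128-70952226 on the minus strand. Lmf1 is at chr17:25579085-25662826 on the plus strand, and Angptl4 is on the minus strand of the same chromosome at chr17:33773750-33781830. Gpihbp1 is at chr15:75596628-75599481 and Vldlr at chr19:27216484-27254231, both on the plus strand. Angptl6 is on the minus strand at chr9:20873808-20879727. The longest exact run of bases shared by annotated protein-coding transcripts was 17 bases between Lpl and Lipc, 16 between Angptl4 and Angptl6, and 16 between Lmf1 and its relative Lmf2.

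RefSeq promoter windows on GRCm38.p6 were matched for 4 of the 8 members. The 250 bases before the annotated start, 5′ to 3′ in the direction of transcription, are printed for Lipc and Angptl6, whose levels were both lower in every LAC mouse than in any NUL or ID6 mouse, and for Vldlr, whose level separated by animal number. Capitals mark CCAAT in either direction (ATTGG is its reverse complement). The Lipc window is chr9:70952222-70952471 on the minus strand, the Angptl6 window is chr9:20879711-20879960 on the minus strand, and the Vldlr window is chr19:27216234-27216483 on the plus strand.
Lipc: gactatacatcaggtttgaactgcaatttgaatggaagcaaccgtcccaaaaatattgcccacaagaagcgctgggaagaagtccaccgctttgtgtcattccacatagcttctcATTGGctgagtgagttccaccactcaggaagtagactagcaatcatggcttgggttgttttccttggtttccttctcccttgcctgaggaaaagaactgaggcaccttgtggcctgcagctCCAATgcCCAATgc
Angptl6: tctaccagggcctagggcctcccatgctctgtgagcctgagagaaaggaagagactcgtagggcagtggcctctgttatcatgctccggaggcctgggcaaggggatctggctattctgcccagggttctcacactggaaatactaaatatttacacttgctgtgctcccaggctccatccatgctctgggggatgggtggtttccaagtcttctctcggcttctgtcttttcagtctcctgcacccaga
Vldlr: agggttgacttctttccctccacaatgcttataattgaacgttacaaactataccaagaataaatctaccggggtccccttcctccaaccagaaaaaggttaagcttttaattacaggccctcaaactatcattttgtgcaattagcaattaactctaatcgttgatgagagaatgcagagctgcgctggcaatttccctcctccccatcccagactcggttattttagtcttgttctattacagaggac
Both strands were searched for 5 strings. These were the TATA box, written TATAAA, the CCAAT box, the GC box, written GGGCGG, the nuclear receptor hexamer, written AGGTCA, and the E-box, written CACGTG. The CCAAT box was found 3 times in the Lipc window, at positions -135, -14 and -7 from the start, and is present in 33.8% of 32851 windows of the same length. None of the 5 strings occurred in the Angptl6 window or in this Vldlr window. Another RefSeq window for Lipc, chr9:70934809-70935058 on the minus strand, held the CCAAT box 1 time, the GC box 1 time and the hexamer 2 times. Another for Vldlr, chr19:27216770-27217019 on the plus strand, held the CCAAT box and the GC box 1 time each, and the Lmf1 window held 1 GC box. Over all windows the TATA box was present in 12.4%, the GC box in 32.7%, the hexamer in 14% and the E-box in 6.02%.

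The tissue carried the signature of hepatocytes in every mouse. Albumin lay between 42481 and 127179 TPM, and between 11209 and 11797 genes per mouse reached 1 TPM. Albumin alone held 5.52% of TPM in NUL, 10.0% in LAC and 6.25% in ID6, and a larger share for it lowers the TPM of other genes. The files hold TPM and no counts, so the depth of each library is unknown here and no counting interval is given. The mice carry animal numbers, which fall into a range under 200 (3 NUL and 3 LAC mice) and a range of 200 and above (4 NUL, 3 LAC and all 6 ID6 mice). The mice were known from earlier results to separate by these ranges, which the labels do not name as a batch, and the 6 ID6 mice have no counterpart under 200. Striated muscle markers, 7 genes, summed to 329.5 TPM in NUL_1, 60.89 in NUL_4, 23.4 in LAC_133, 11.13 in LAC_102 and 10.57 in ID6_230, and to no more than 1.56 TPM in the other mice. Their part in the results was not tested. Without these 5 mice and with no limit on size, Lipg no longer passed in either ID6 comparison and Lmf1 no longer passed in ID6 against NUL. Genes of the related lists with a log2 difference of at least 1 that passed in ID6 against NUL numbered 0 in place of 4. Adipocyte markers other than Fabp4 stayed at or below 2.95 TPM, the highest value of Adipoq, in every mouse.

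The levels of the members ranged widely. Lipc was far above the rest, with a mean of 339.8 TPM over the 19 mice and rank 381 of 51826 entries. Angptl4 at 40.7 TPM, Gpihbp1 at 37.0, Lmf1 at 26.6, Lpl at 20.2 and Angptl6 at 13.99 formed a middle tier, in which single mice overlapped between every neighbouring pair. Lipg at 3.15 TPM and Vldlr at 2.54 were the lowest, and they overlapped as well. Lmf1 varied least over all mice, with a highest value 1.32 times the lowest, and Lpl varied most, with a highest value 37.7 times the lowest.

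**Figure D1:**
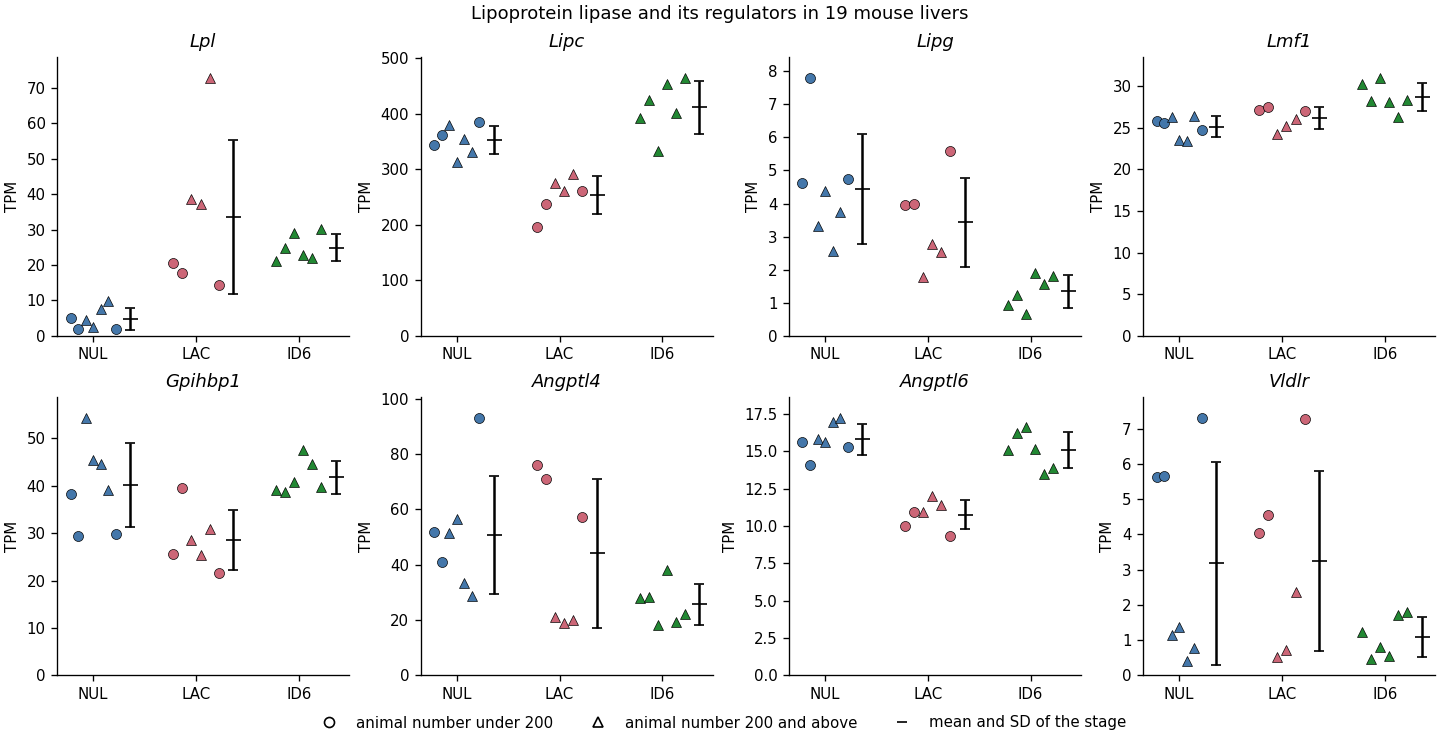
Level of each member (TPM, linear axes from 0) in every mouse at NUL, LAC and ID6, with circles for animal numbers under 200, triangles for 200 and above, and the mean and SD of each stage beside the points. All LAC and ID6 mice lie above all NUL mice for Lpl, and circles and triangles separate for Vldlr within NUL and within LAC.

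Lpl was the member with the widest difference between stages. In NUL livers it ran from 1.93 to 9.78 TPM with a median of 4.36, in LAC livers from 14.47 to 72.69 with a median of 28.9, and in ID6 livers from 21.02 to 30.05 with a median of 23.7. No LAC or ID6 mouse overlapped the NUL mice, whereas the LAC values spanned those of ID6. The mean was 4.74 ± 3.02 TPM (SD, n = 7) in NUL, 33.6 ± 21.7 (SD, n = 6) in LAC and 24.9 ± 3.80 (SD, n = 6) in ID6. The LAC mean was thus 7.08 times the NUL mean and the ID6 mean 5.26 times, with log2 differences of 2.54 (SE 0.34) and 2.33 (SE 0.34), on the scale of log2(TPM + 1) used for all differences here. Between LAC and ID6 the log2 difference was -0.21 (SE 0.36). Without the 5 mice of high muscle markers Lpl differed between LAC and NUL by 2.71 (SE 0.43). The spread of Lpl was unequal too, with a coefficient of variation of 63.6% in NUL, 64.7% in LAC and 15.2% in ID6. NUL and LAC hold both ranges of animal number, and ID6 only that of 200 and above. Within LAC the coefficient was 17.4% under 200 (n = 3) and 40.5% at 200 and above (n = 3). Within NUL it was 60.2% (n = 3) and 53.6% (n = 4) in the same order.

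The LAC mice separated by animal number. The 3 LAC mice under 200 held 14.47, 17.71 and 20.58 TPM of Lpl, and the 3 at 200 and above held 37.31, 38.58 and 72.69. These sets did not overlap. Among NUL mice the range under 200 held 1.93, 1.94 and 5.03 TPM, and the range of 200 and above 2.52, 4.36, 7.63 and 9.78, which overlapped. The overlap rests on NUL_1 at 5.03 TPM, the mouse with the highest striated muscle marker sum. The part of muscle in that value was not tested. LAC lay above NUL within both ranges, 5.93 times under 200 and 8.16 times at 200 and above. Among mice of 200 and above, all 6 ID6 values were below the 3 LAC values. The means were 24.9 and 49.5 TPM, a log2 difference of -0.91 (SE 0.24), where the comparison of all mice gave -0.21. In the limma fit of mice of 200 and above alone, Lpl did not pass an adjusted p under 0.05 in ID6 against LAC.

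Hepatic lipase moved the other way in LAC against NUL, at a much higher level. Lipc ran from 313.07 to 384.32 TPM in NUL (median 354.9), from 195.21 to 291.13 in LAC (median 260.9) and from 333.4 to 463.39 in ID6 (median 412.6). Every LAC mouse was below every NUL and every ID6 mouse, and 5 of 6 ID6 mice were above all NUL mice. The LAC mean of 253.3 ± 33.7 TPM (SD, n = 6) was below the NUL mean of 352.6 ± 25.7 (SD, n = 7), a log2 difference of -0.48 (SE 0.09), and the ID6 mean of 411.3 ± 47.4 (SD, n = 6) exceeded that of LAC by 0.70 (SE 0.09). The lower level in LAC was present in both ranges, with log2 differences of -0.66 (SE 0.13) under 200 and -0.32 (SE 0.08) at 200 and above. In the limma fit of mice of 200 and above alone, Lipc did not pass an adjusted p under 0.05 in LAC against NUL.

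Endothelial lipase was low throughout and lowest in ID6. Lipg, at chr18:74939322-74961263 on the minus strand, ran from 2.55 to 7.78 TPM in NUL (median 4.39), from 1.77 to 5.59 in LAC (median 3.36) and from 0.67 to 1.89 in ID6 (median 1.40). All ID6 mice were below all NUL mice, and 4 of 6 were below all LAC mice. The NUL mean was 4.45 ± 1.66 TPM (SD, n = 7), the LAC mean 3.43 ± 1.36 (SD, n = 6) and the ID6 mean 1.35 ± 0.493 (SD, n = 6). The ID6 mean was 0.303 of the NUL mean, with a log2 difference of -1.19 (SE 0.21), and among mice of 200 and above the difference was -0.95 (SE 0.19), still with no overlap. The LAC mice differed from NUL by -0.31 (SE 0.21).

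As the 3 lipases are on one scale, their shares of the summed lipase transcripts can be given. Lpl made up 1.33% ± 0.872 (SD, n = 7) of them in NUL, 11% ± 5.21 (SD, n = 6) in LAC and 5.76% ± 1.18 (SD, n = 6) in ID6. Lipc made up 97.4%, 87.8% and 93.9%. The summed level was 362 ± 25.0 TPM (SD, n = 7) in NUL, 290 ± 50.3 (SD, n = 6) in LAC and 438 ± 47.8 (SD, n = 6) in ID6. In single mice the share of Lpl reached from 0.494% in NUL to 19.8% in LAC. Hepatic lipase therefore stayed the main transcript among these 3 in every mouse.

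The folding factor shared by the lipases differed least. Lmf1 ran from 23.43 to 26.37 TPM in NUL (median 25.5), from 24.2 to 27.45 in LAC (median 26.5) and from 26.24 to 30.91 in ID6 (median 28.3). The groups overlapped in all 3 comparisons. The ID6 mean of 28.7 ± 1.68 TPM (SD, n = 6) exceeded the NUL mean of 25.1 ± 1.25 (SD, n = 7) by a log2 difference of 0.18 (SE 0.05), and a median-ratio scaling of the mice lowered this to 0.08. The LAC mean was 26.2 ± 1.27 (SD, n = 6).

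The endothelial carrier of LPL was lower in LAC. Gpihbp1 ran from 29.46 to 54.3 TPM in NUL (median 39.2), from 21.5 to 39.55 in LAC (median 27.1) and from 38.77 to 47.62 in ID6 (median 40.2). Of the 6 LAC mice 4 were below all NUL mice, and of the 6 ID6 mice 4 were above all LAC mice. The log2 difference was -0.47 (SE 0.14) between LAC and NUL and 0.55 (SE 0.14) between ID6 and LAC. At 200 and above the LAC mice held 25.34, 28.58 and 30.85 TPM, all below the NUL mice at 39.17, 44.48, 45.37 and 54.3. Under 200 the LAC mice held 21.5, 25.53 and 39.55 TPM and overlapped the NUL mice at 29.46, 29.73 and 38.2.

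Markers of the sinusoidal endothelium moved with Gpihbp1, which is an endothelial gene in other tissues. The sum of 10 such markers lay between 177.6 and 235.4 TPM in NUL, between 107.7 and 182.6 in LAC and between 247.5 and 265.7 in ID6, and none of the 10 was at 0 in any stage as a whole. In LAC against NUL 0 of the 10 rose and 3 fell, and in ID6 against LAC 7 rose and 0 fell at a limma adjusted p under 0.05, as 9.21% and 22.8% of all genes did in either direction. In bulk tissue fewer cells of a type and less RNA per cell cannot be told apart. Kupffer cell and macrophage markers, 11 genes, summed to between 291 and 546.2 TPM in NUL, 199.1 and 376.7 in LAC and 610.6 and 815.9 in ID6, with 10 of 11 lower in LAC than in NUL and 11 of 11 higher in ID6 than in LAC. Stellate cell markers, 7 genes, summed to between 253.8 and 364.9 TPM in NUL, 203.1 and 245.8 in LAC and 280.3 and 346.5 in ID6, and 0 rose and 4 fell in LAC against NUL while 3 rose and 0 fell in ID6 against LAC. The stellate sums of LAC thus overlapped neither other stage, whereas the endothelial sums of NUL and LAC overlapped over all mice but not within a range. Under 200 the endothelial sums lay between 177.6 and 222.8 TPM in NUL and between 107.7 and 173.9 in LAC. At 200 and above they lay between 225.0 and 235.4 TPM in NUL and between 158.4 and 182.6 in LAC. The part of these cell types in the levels of the members was not tested.

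**Figure D2:**
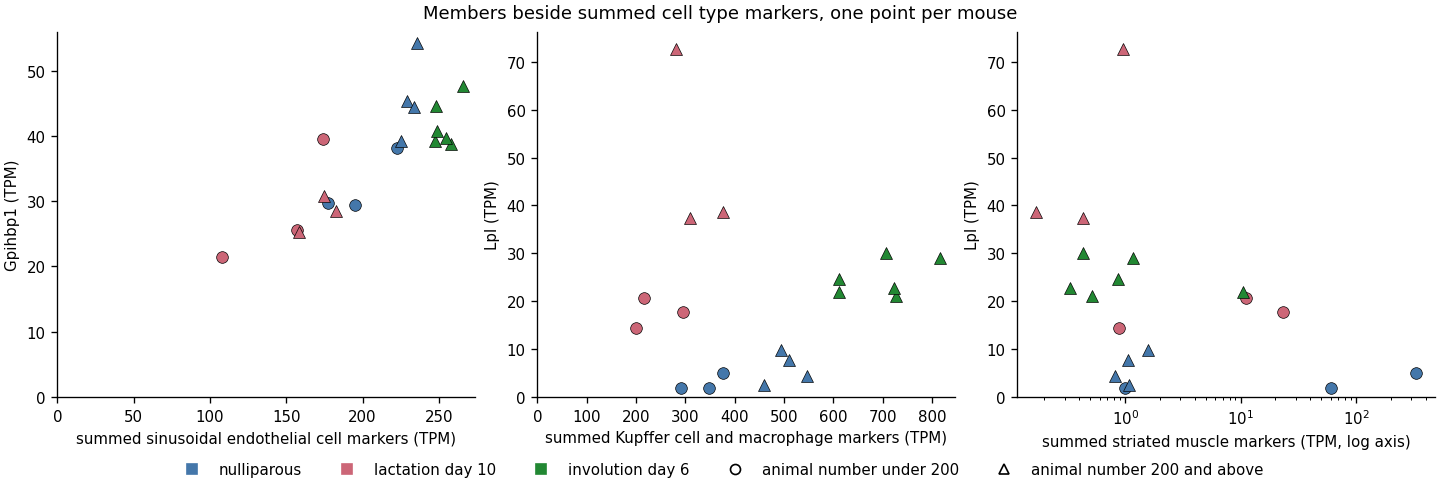
Gpihbp1 or Lpl (TPM) against summed markers of sinusoidal endothelium, Kupffer cells and macrophages, and striated muscle (TPM, the last on a log axis), 1 point per mouse, coloured by stage and shaped by animal number. Gpihbp1 and the endothelial sum are lowest in the same LAC mouse (21.5 and 107.7 TPM). The mouse with most Lpl (72.69 TPM) has a muscle sum of 0.96 TPM. The mice with the highest muscle sums, NUL_1 (329.46 TPM) and NUL_4 (60.89 TPM), have 5.03 and 1.93 TPM of Lpl.

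The ratio of Lpl to its carrier differed between stages. Lpl over Gpihbp1 was between 0.0555 and 0.25 in NUL, 0.448 and 2.36 in LAC and 0.479 and 0.758 in ID6. In the 3 LAC mice of 200 and above the ratio was at least 1.35, so that these mice held more Lpl than Gpihbp1 transcript, and in the 3 LAC mice under 200 it was at most 0.806.

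Over all mice the stages overlapped for the inhibitor Angptl4 in all 3 comparisons, though 5 of 6 ID6 mice were below all NUL mice. It ran from 28.67 to 93.03 TPM in NUL (median 51.5), from 18.76 to 75.96 in LAC (median 39.1) and from 18.04 to 38.03 in ID6 (median 25.0). The NUL mean was 50.8 ± 21.3 TPM (SD, n = 7), the LAC mean 44.0 ± 27.1 (SD, n = 6) and the ID6 mean 25.6 ± 7.43 (SD, n = 6). The log2 difference was -0.36 (SE 0.34) for LAC against NUL, -0.55 (SE 0.35) for ID6 against LAC and -0.91 (SE 0.34) for ID6 against NUL. Within the range of 200 and above ID6 lay above LAC instead, by 0.30 (SE 0.23).

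The LAC values of Angptl4 fell into the ranges of animal number with a wide gap. LAC mice under 200 held 57.27, 71.12 and 75.96 TPM, and those of 200 and above 18.76, 20.15 and 20.96. The NUL mice under 200 held 40.98, 51.79 and 93.03 TPM and those of 200 and above 28.67, 33.23, 51.5 and 56.6, which overlapped. LAC was thus 1.10 times NUL under 200 and 0.47 of NUL at 200 and above, where the groups did not overlap. With no limit on size, Angptl4 passed a limma adjusted p under 0.05 in LAC against NUL in 1 of 28 alternatives. That was the fit of mice of 200 and above alone. The ratio of Angptl4 to Lpl had a median of 11.8 in NUL, 2.12 in LAC and 1.02 in ID6, and in LAC it lay between 3.69 and 4.02 under 200 and between 0.277 and 0.543 at 200 and above.

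Angptl6 varied little within a stage and was lower in LAC. It ran from 14.07 to 17.24 TPM in NUL (median 15.6), from 9.33 to 12.03 in LAC (median 10.9) and from 13.49 to 16.62 in ID6 (median 15.1). No LAC mouse overlapped either other stage. The LAC mean of 10.8 ± 0.969 TPM (SD, n = 6) was 0.681 of the NUL mean of 15.8 ± 1.06 (SD, n = 7), with a log2 difference of -0.52 (SE 0.07), and ID6, at 15.1 ± 1.23 (SD, n = 6), exceeded LAC by 0.45 (SE 0.07). Both ranges showed the lower level in LAC, by -0.53 (SE 0.07) under 200 and -0.48 (SE 0.05) at 200 and above.

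Vldlr differed little between NUL and LAC and spread widely within both. It ran from 0.42 to 7.31 TPM in NUL (median 1.38), from 0.53 to 7.27 in LAC (median 3.21) and from 0.45 to 1.8 in ID6 (median 1.02). The log2 difference was 0.09 (SE 0.45) for LAC against NUL, -0.82 (SE 0.46) for ID6 against LAC and -0.73 (SE 0.45) for ID6 against NUL. NUL mice under 200 held 5.62, 5.66 and 7.31 TPM, and those of 200 and above 0.42, 0.79, 1.15 and 1.38. LAC mice under 200 held 4.04, 4.54 and 7.27 TPM, and those of 200 and above 0.53, 0.73 and 2.37. Among mice of 200 and above alone, ID6 differed from LAC by -0.04 (SE 0.33) and from NUL by 0.09 (SE 0.24). No ID6 mouse has a number under 200.

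**Figure D3:**
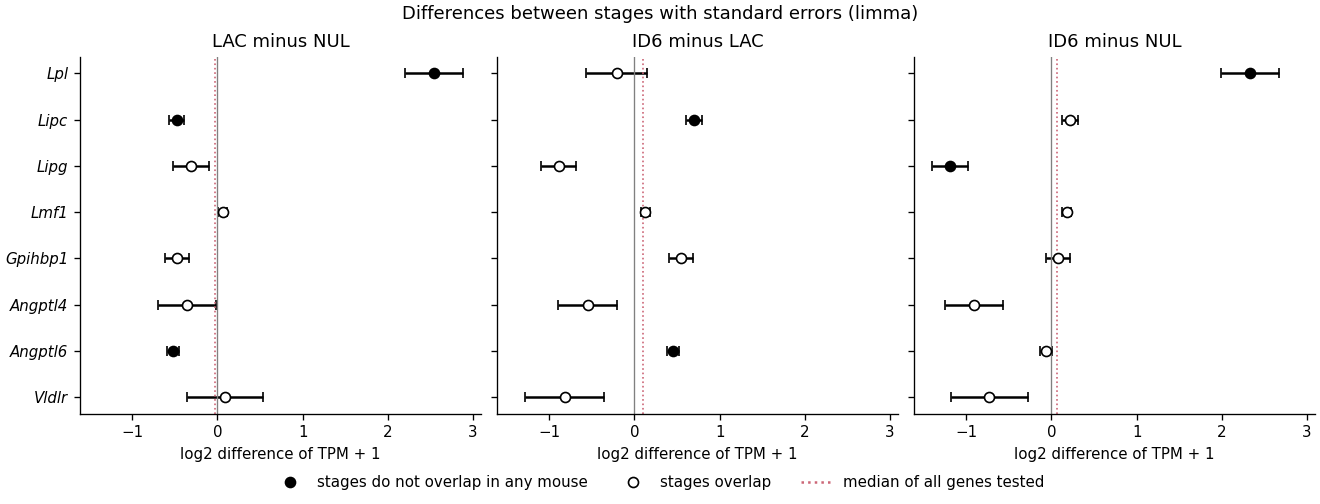
Log2 difference of TPM + 1 for each member (points, with limma standard errors) in LAC against NUL, ID6 against LAC and ID6 against NUL, filled where the stages do not overlap in any mouse, with the median of all genes tested as a dotted line. Lpl stands at 2.54 and 2.33 above NUL, while Lipc, Gpihbp1 and Angptl6 are lower in LAC and higher again in ID6.

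Counts of calls place the members beside all genes, though the choice of members used these contrasts and nothing is read from them. A call needed a limma adjusted p under 0.05 and a log2 difference of at least 1. In LAC against NUL 1 of 8 members was called (Lpl), where 0.746% of 16230 genes were, and without the limit on size 4 were (Lpl higher, Lipc, Gpihbp1 and Angptl6 lower), where 9.21% of genes were. In ID6 against LAC 0 of 8 were called by limma against 1.93% of genes, 0 also had both an unadjusted p under 0.05 and that size, and without the limit 4 were (Lipc, Gpihbp1 and Angptl6 higher, Lipg lower) against 22.8%. In ID6 against NUL Lpl and Lipg were called, 2 of 8 against 0.253% of genes, and without the limit Lmf1 joined them, 3 of 8 against 4.36%. The median log2 difference of the members was -0.33, -0.04 and 0.01 in the same order, beside -0.03, 0.10 and 0.07 over all genes tested. Of the 28 alternatives tried, Lpl kept its call in 28 for LAC against NUL and in 28 for ID6 against NUL, and Lipg kept its call in 25 for ID6 against NUL. Lipg was not called there with only mice of 200 and above (-0.95), with range as a covariate or without the mice of high muscle markers. With no limit on size, Angptl6 passed in 28 of 28 for LAC against NUL, Lipc in 27, and Gpihbp1 in 16. Lipc did not pass there with only mice of 200 and above. Median-ratio scaling was among the alternatives under which Gpihbp1 did not pass in LAC against NUL. For ID6 against LAC Lipc and Angptl6 passed in 28 of 28, Lipg in 26 and Gpihbp1 in 26. Lipg did not pass there with only mice of 200 and above or without the mice of high muscle markers, and Gpihbp1 did not with range as a covariate or with median-ratio scaling. For ID6 against NUL Lmf1 passed in 8 of 28. Comparisons that share a stage share its mice.

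The contrast between ranges of animal number had no part in the choice of the members and was tested in the 13 NUL and LAC mice with stage in the model. The mice were, however, already known to separate by these ranges, so many calls are to be expected. The p-values are not an independent test of the split. At a limma adjusted p under 0.05 4 of 8 members differed, where 25.6% of genes did. Vldlr was lower at 200 and above (5.74 TPM under 200 against 1.05 in the mean of both stages, log2 difference -1.75, SE 0.20, limma adjusted p = 5.23e-05), with no overlap within NUL or within LAC. Angptl4 was lower (65.0 against 32.8 TPM, -1.07, SE 0.25, limma adjusted p = 0.00844) and Lipg was lower (5.11 against 3.01 TPM, -0.63, SE 0.14, limma adjusted p = 0.00515), the latter without overlap in either stage. Lpl was higher (10.3 against 24.7 TPM, 1.07, SE 0.28, limma adjusted p = 0.0146).

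The remaining members did not pass that test. Angptl6 differed by 0.15 (SE 0.05, limma adjusted p = 0.0612) with no overlap in either stage, Gpihbp1 by 0.26 (SE 0.14, limma adjusted p = 0.198), Lipc by 0.08 (SE 0.08, limma adjusted p = 0.51) and Lmf1 by -0.07 (SE 0.05, limma adjusted p = 0.317). Without the 5 mice of high muscle markers, which leaves 1 NUL and 1 LAC mouse under 200, only Vldlr and Lipg passed, while Lpl differed by 1.38 (limma adjusted p = 0.0967) and Angptl4 by -0.72 (limma adjusted p = 0.263). A median-ratio scaling added Lmf1 to the members that passed, and testing with no filter added Angptl6.

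Whether the lactation difference itself depended on the range was tested with an interaction term. None of the 8 members passed a limma adjusted p under 0.05, as did 0.111% of genes. Members with an unadjusted p under 0.05 numbered 2, Angptl4, whose lactation difference was more negative at 200 and above by 1.21 on the log2 scale (interaction -1.21, SE 0.40, limma adjusted p = 0.239), and Lipc (0.34, SE 0.14, limma adjusted p = 0.33). For Lpl the interaction was 0.59 (SE 0.56, limma adjusted p = 0.657), and its standard error leaves room for a difference in either direction.

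**Figure D4:**
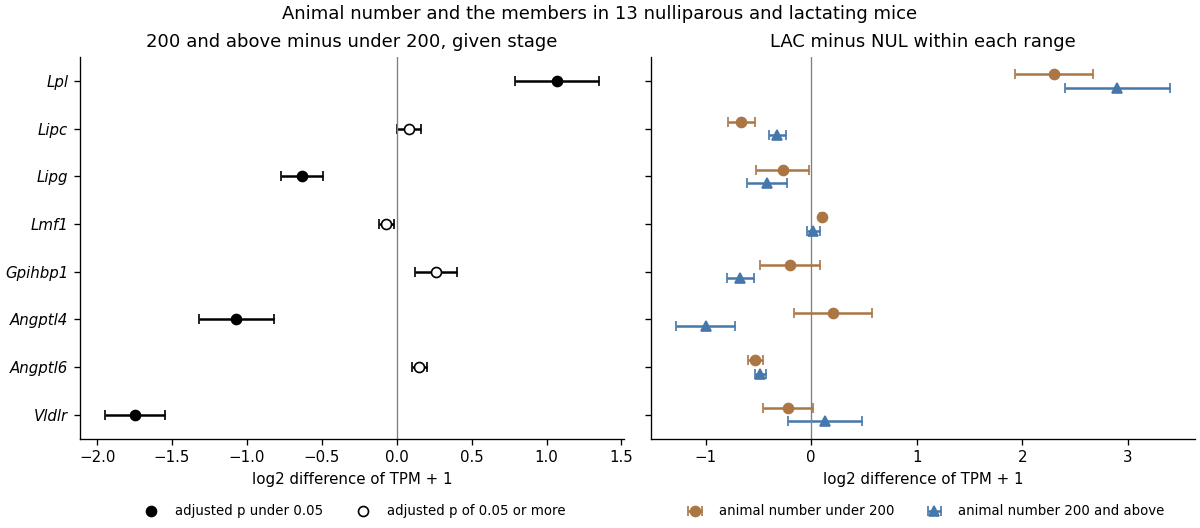
Left, log2 difference of TPM + 1 between animal numbers of 200 and above and under 200 given stage (points with limma standard errors, filled at an adjusted p under 0.05). Right, the LAC minus NUL difference within each range, with standard errors pooled from the 2 groups of mice compared, where Lpl lies at 2.30 under 200 and 2.90 at 200 and above, and Angptl4 at 0.21 and -1.0.

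The members were then compared with each other across mice. On log2(TPM + 1), after the mean of each stage was taken off, 4 of 28 pairs had a Pearson r of at least 0.7 in size over 19 mice, Lpl with Angptl4 (-0.77), Lipg with Angptl6 (-0.76), Lipg with Vldlr (0.75) and Angptl6 with Vldlr (-0.72). After the means of stage and range together were taken off, 0 of 28 pairs did and r lay between -0.58 and 0.47. The mice share their stage and range, so these values describe the table only.

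By the same measure, the genes whose pattern was most like that of Lpl over the 19 mice, among 11604 genes that averaged 1 TPM or more, were Cyp2a4 (r = 0.909), a steroid hydroxylase, Lsr (0.898), a receptor for triglyceride-rich lipoproteins, Gdpd1 (0.89), a lysophospholipase D, Hexa (0.889) and Gusb (0.878), the latter both lysosomal hydrolases. After stage means were taken off they were Pygb (0.929), brain glycogen phosphorylase, Frrs1 (0.901), Ccdc149 (0.884), Atg13 (0.88), an autophagy factor, and Zdhhc14 (0.874), a palmitoyltransferase. No gene was in both lists.

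Related genes of the pathway were taken from lists that were chosen with earlier results of these data known. Their limma adjusted p-values, in the stage comparisons and between ranges of animal number, are therefore a description and not an independent test. Of 7 plasma cofactors and inhibitors of LPL, all made by hepatocytes, 1 rose and 1 fell in LAC against NUL, where 9.21% of all genes passed in either direction. Apoa5, an activator of triglyceride hydrolysis, fell to 609 ± 114 TPM (SD, n = 6) in LAC where NUL held 984 ± 161 (SD, n = 7), a log2 difference of -0.70 (SE 0.12, limma adjusted p = 0.00143). In ID6 against LAC 3 of 7 rose and 2 fell beside 22.8% of genes, with Apoa5 higher by 0.74 (SE 0.13, limma adjusted p = 0.000425), Apoe higher by 0.79 (SE 0.12, limma adjusted p = 8.74e-05) and Apoc2, the cofactor that LPL requires, lower (-0.49, SE 0.15, limma adjusted p = 0.0209), though Apoc2 did not pass among mice of 200 and above alone (-0.40, SE 0.18, limma adjusted p = 0.168). These differences are all under the limit of 1, and genes under that limit are named here after their values were seen.

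Of 9 genes for the maturation, export and cleavage of LPL, 0 rose and 0 fell in LAC against NUL at a limma adjusted p under 0.05, with 2 at an unadjusted p under 0.05, and in ID6 against LAC 0 rose and Pcsk6, a proprotein convertase, fell (-0.41, SE 0.14, limma adjusted p = 0.0338), though not among mice of 200 and above alone (-0.10, SE 0.10, limma adjusted p = 0.55). Between the ranges of animal number 5 rose and 1 fell, beside 25.6% of genes. Syvn1 was higher at 200 and above by 1.5 (SE 0.15, limma adjusted p = 1.67e-05) and Sel1l by 0.83 (SE 0.13, limma adjusted p = 0.000485). SEL1L and SYVN1 form the complex that removes misfolded proteins from the endoplasmic reticulum, and SEL1L is also known to be needed for LPL to leave it.

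Of 10 receptors for lipoproteins and fatty acids and their regulators, 9 were tested. In LAC against NUL 2 rose and 1 fell. Of these Lsr rose by 0.61 (SE 0.12, limma adjusted p = 0.0029) and Mylip, a ubiquitin ligase for lipoprotein receptors, fell by 0.43 on the log2 scale (-0.43, SE 0.11, limma adjusted p = 0.0181). In ID6 against LAC 2 rose and 3 fell, among the latter Cd36 (-1.17, SE 0.41, limma adjusted p = 0.047), a fatty acid transporter. Cd36 separated by animal number like Vldlr, at 66.1 and 123 TPM in NUL and LAC mice under 200 against 19 and 41.1 TPM at 200 and above (-1.66, SE 0.13, limma adjusted p = 2.03e-06). Among mice of 200 and above alone Cd36 rose in LAC against NUL (1.08, SE 0.15, limma adjusted p = 0.00133) and ID6 lay below LAC by a difference that did not pass (-0.39, SE 0.14, limma adjusted p = 0.0804).

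Among lipases outside the members, Pnpla3, a triglyceride and retinyl ester hydrolase, rose to 8.39 ± 5.70 TPM (SD, n = 6) in LAC where NUL held 1.04 ± 0.914 (SD, n = 7), a log2 difference of 2.04 (SE 0.39, limma adjusted p = 0.00287). Ces3a, a carboxylesterase with close paralogs among which reads may have been divided uncertainly, fell by 1.28 on the log2 scale (-1.28, SE 0.31, limma adjusted p = 0.0122). The list of 9 genes also holds Lcat, an acyltransferase. In all 1 of the 9 rose and 3 fell in LAC, beside 9.21% of genes. In ID6 against LAC 5 rose, Lcat among them, and 1 fell, beside 22.8%. Among mice of 200 and above alone 2 rose and 1 fell in ID6 against LAC. Among mice of 200 and above alone Pnpla3 rose in LAC by 2.56 (SE 0.35, limma adjusted p = 0.00135) and fell again in ID6 (-1.97, SE 0.33, limma adjusted p = 0.00148). Of 6 other genes of the pancreatic lipase family 2 could be tested, and Pla1a, a phospholipase, rose in ID6 against LAC by 0.79 (SE 0.22, limma adjusted p = 0.0129). With mice of 200 and above alone Pla1a rose there by 0.36 (SE 0.08, limma adjusted p = 0.0074). Between ranges of animal number Pla1a was higher at 200 and above by 0.87 (SE 0.07, limma adjusted p = 2.18e-06). Of 5 other angiopoietin-like genes 4 were tested, and Angptl8, which the liver releases, passed in 0 of the 3 stage comparisons and was higher at 200 and above by 1.08 (SE 0.32, limma adjusted p = 0.0248).

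PPAR alpha, the fatty acid receptor of hepatocytes, is known to drive Angptl4 and Vldlr, and LXR, the oxysterol receptor, is known to drive Lpl in the liver. Of 19 PPAR receptors and target genes 0 rose and 4 fell in LAC against NUL, with a median log2 difference of -0.07, and among mice of 200 and above alone 1 rose and 4 fell. The gene that rose there was Cyp4a10 (2.35, SE 0.39, limma adjusted p = 0.00381), which ran from 217.2 to 274.78 TPM in those LAC mice and from 42.7 to 51.45 in those NUL mice, and LAC lay above NUL without overlap under 200 too. Between ranges of animal number 1 rose and 9 fell beside 25.6% of genes, Cyp4a14 by -3.53 (SE 0.25, limma adjusted p = 1.09e-06), Acot1 by -3.41 (SE 0.16, limma adjusted p = 1.87e-08) and Cyp4a10 by -3.38 (SE 0.21, limma adjusted p = 3.29e-07), all genes of fatty acid breakdown with close paralogs. Ppard was the gene that rose (1.57, SE 0.27, limma adjusted p = 0.00101). In ID6 against LAC 1 rose and 7 fell, Cyp4a14 by -5.19 (SE 0.91, limma adjusted p = 0.000448), and with mice of 200 and above alone 0 rose and 5 fell, Cyp4a14 by -3.19 (SE 0.49, limma adjusted p = 0.001).

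Of 10 LXR receptors and target genes 2 rose and 3 fell in LAC against NUL, 7 rose and 1 fell in ID6 against LAC, and 5 rose and 0 fell in ID6 against NUL, with medians of -0.23, 0.53 and 0.50 beside -0.03, 0.10 and 0.07 over all genes. Scd1, the stearoyl-CoA desaturase, rose in LAC by 1.96 (SE 0.30, limma adjusted p = 0.000465), whereas the sterol transporters Abcg5 and Abcg8 rose in ID6 against LAC by 0.94 (SE 0.12, limma adjusted p = 3.13e-05) and 0.99 (SE 0.13, limma adjusted p = 3.8e-05). Abcg8 was lower in LAC than in NUL (-0.47, SE 0.13, limma adjusted p = 0.026), whereas Abca1, a cholesterol exporter, was higher (0.47, SE 0.13, limma adjusted p = 0.0311). The part of LXR in the level of Lpl was not tested. Srebf1 rose in ID6 against NUL by 1.51 (SE 0.29, limma adjusted p = 0.00865), but among mice of 200 and above alone it did not pass (0.96, SE 0.22, limma adjusted p = 0.0685) and 1 of the list rose and 0 fell. Without the mice of high muscle markers Srebf1 did not pass either (1.15, SE 0.28, limma adjusted p = 0.0953).

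**Figure D5:**
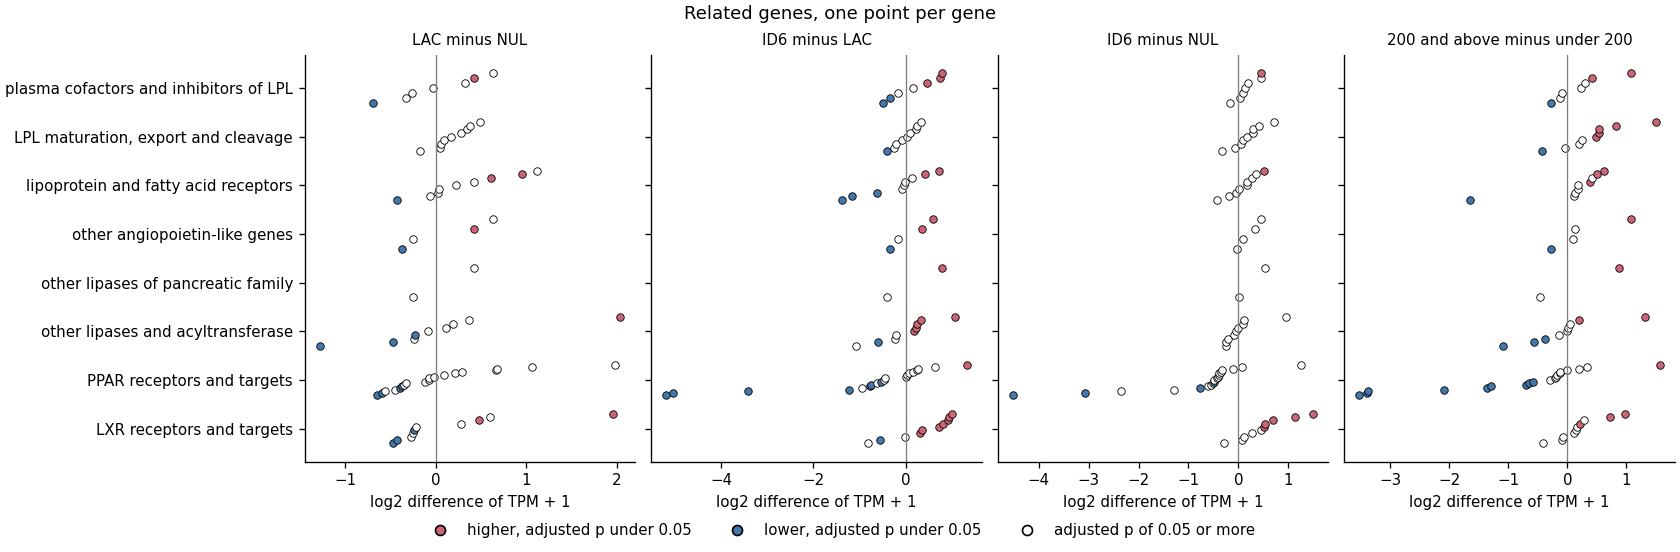
Log2 difference of TPM + 1 for each tested gene of 8 lists of related genes (1 point per gene, red where higher and blue where lower at a limma adjusted p under 0.05, white otherwise) in the 3 stage comparisons and between ranges of animal number. The PPAR list holds the most negative values, -5.19 for Cyp4a14 in ID6 against LAC, and the LXR list has 7 genes higher in that comparison.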

How the data were processed

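Poly(A) RNA of 19 livers, from the caudate lobe according to the methods, was sequenced with paired-end reads. The authors aligned the reads to GRCm38, per the labels, and deposited TPM values from RSEM 1.3.1 for 51826 gene entries. TPM keeps no depth, so the count test of the study was not used. Here log2(TPM + 1) of 16230 genes averaging 0.1 TPM or more was fitted with limma 3.58.1 (R 4.3.3, trend), 1 mean per stage over all 19 mice, with Benjamini-Hochberg adjustment over all genes tested. Standard errors of members within 1 range of animal number were pooled from the SDs of the 2 groups compared, with no moderation. The range of animal number was fitted in the 13 NUL and LAC mice with stage, and again with an interaction. A call needed an adjusted p under 0.05 and, where stated, a log2 difference of at least 1.

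The 8 members and the lists of related genes were chosen with earlier results of these data known. The text names all members, up to 4 called genes per list and comparison by size that average 1 TPM or more, and the 5 genes most like Lpl by Pearson r over the mice and over deviations from stage means. Genes of the lists under the size limit are named beyond that rule. Some genes of the lists are counted in them but not reported by name here. The alternatives were a pseudocount of 0.1 or 0.5 in place of 1, a minimum mean of 1 TPM or no minimum, median-ratio scaling, only the 2 groups compared, only mice of 200 and above, range as a covariate, no limit on size and each mouse left out. Leaving out mice whose striated muscle markers summed to over 10 TPM was added after the sums were seen. Among 171 pairs of mice, 0 held identical values, and p-values measure the spread between mice as labelled.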

Additional observations from a re-analysis of the deposited data

Results flagged for a closer look

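In 24 groups of 6 or 7 mice, a member in a stage, 1 value stood apart from the rest of its group. Lipg in NUL_13 was 7.78 TPM, where the next highest nulliparous mouse held 4.75 TPM, which is 0.579 of the distance from lowest to highest, where the limit for 7 mice is 0.568. Chance flags about 1 in 20 such groups. NUL_13 has an animal number under 200 and a striated muscle marker sum of 0.99 TPM.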

How the results depend on the processing

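No difference that was called changed its sign under an alternative. Lpl was called in LAC against NUL and in ID6 against NUL under every alternative run. With no limit on the size of the difference, the number of members called was 4 in LAC against NUL and 4 in ID6 against LAC, by construction, and the number of list genes called rose to 18, 35 and 11 in LAC against NUL, ID6 against LAC and ID6 against NUL, from 3, 8 and 4. In ID6 against LAC 1 member, Lipg, was called in place of 0 with a pseudocount of 0.1 and with 0.5, and with each mouse left out the count lay between 0 and 1, the 1 without LAC_200. In ID6 against NUL 1 member in place of 2 was called with only mice of 200 and above, with range as a covariate and without the mice of high muscle markers, each time without Lipg. The count of list genes in LAC against NUL was 6 with only mice of 200 and above and 5 with range as a covariate. In ID6 against NUL it was 2 with no filter, with median-ratio scaling and with only the 2 groups compared, 1 with only mice of 200 and above, and 0 without the mice of high muscle markers. Between ranges of animal number 2 members in place of 4 passed without those mice, a fit with fewer mice. For the others the cause was not tested. Lmf1 in ID6 against LAC was 0.13 and became -0.02 with median-ratio scaling, which brought the median of all genes in that comparison from 0.10 to near 0, and Vldlr in the same comparison became 0.06 with range as a covariate. With no limit on size, that scaling changed the genes passing in ID6 against LAC from 2936 higher and 767 lower to 1367 higher and 1260 lower. No paired analysis was possible because the groups share no replicate numbers.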
